A study of Mus musculus with 9 samples.

Results

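The 34 genes described here mark the distal nephron and collecting duct, the tubule stretch that lies downstream of the proximal tubule. They were taken by symbol from the deposited expression table, where each stands on 1 line, so that 34 of 52405 entries are covered. By segment, 7 mark the thick ascending limb, 11 the distal convoluted and connecting tubule, 9 the principal cells and 7 the intercalated cells. Levels are in FPKM, the fragments counted per kilobase of transcript and per 1e6 mapped fragments, and means are given ± SD over the 3 libraries of a group. They come from 9 RNA-seq libraries of C57BL/6 mice. The 3 groups were males with a sham operation, females with a sham operation and females whose ovaries were removed, each with 3 libraries, named biological replicates in the labels. The female operations were done at postnatal day 21. The labels call the males adult and give neither their day of surgery nor, in words, an age at collection. All 9 libraries came from cortex cells that bound an antibody against prominin-1, a membrane protein encoded by Prom1, and were held on a magnetic column. The labels name the tissue proximal tubule, so the genes described here are markers of cells other than those named. No animal number or pooling is stated, so the spread between libraries may include technical spread.

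The thick ascending limb reabsorbs salt without water and sets up the voltage that drives calcium and magnesium between its cells. The distal convoluted tubule then takes up sodium chloride and magnesium, and the connecting tubule takes up calcium. Principal cells of the collecting duct reabsorb sodium and water under aldosterone and vasopressin, and intercalated cells secrete acid or base.

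All 34 genes were detected. Their summed level was 0.369% to 0.955% of all FPKM outside mitochondrially encoded genes, depending on the library. The highest was Umod with a mean over the 9 libraries of 882 FPKM, and Aqp4, an aquaporin of principal cells, was the lowest and passed 1 FPKM in only 2 libraries. Aqp4 was therefore left out of the tests, which took genes at 1 FPKM or more in at least 3 libraries. It stood at 0.40, 0.51 and 0.72 FPKM in males, 1.13, 0.53 and 1.29 FPKM in sham females, and 0.73, 0.90 and 0.35 FPKM in ovariectomized females. The other 33 genes were above 1 FPKM in all 9 libraries. Estimated depth was 21.25 to 28.75 M reads (M, 1e6) per library, and 12287 to 13115 genes per library reached 1 FPKM. Library totals were alike, at 693450.6 to 734990.2 FPKM, of which mitochondrially encoded genes made up 24.6% to 27.3%.

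In sham females every one of the 33 tested genes was below its male level, as were 66.8% of all genes tested, and 19 fell at an adjusted p under 0.05 while 0 rose. Of all 13160 genes tested, 4.87% fell and 4.28% rose by the same limma test. The calls came from every segment: 3 of 7 genes of the thick ascending limb, 7 of 11 of the distal convoluted and connecting tubule, 5 of 8 tested genes of principal cells and 4 of 7 of intercalated cells. The median log2 fold change over the 33 genes was -0.92, against -0.09 over all genes tested. By segment it was -0.79, -0.92, -0.85 and -0.98 in the order just given. The difference on the log2(FPKM + 1) scale was 2-fold or more for 9 of the 33 genes, against 1.29% of all genes tested. For 26 of the 33 genes, every sham female library was below every male library, which held for 20.6% of all genes tested. In bulk RNA, fewer cells of a type and less RNA per cell cannot be told apart. The count of 19 depended on single libraries. It was 0 without the second male, 0 without the third male, 0 without the second sham female and 2 without the third sham female, and it was 12 and 11 without the first and the third ovariectomized libraries, which share the estimate of spread. It was also 0 when genes above 0 FPKM in any library were tested and 7 when only the 6 libraries compared were fitted. The direction was below 0 for all 33 genes in all 20 alternative settings, and a called gene kept its call in 4 (Trpv5) to 16 (Aqp3) of them.

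**Figure D1:**
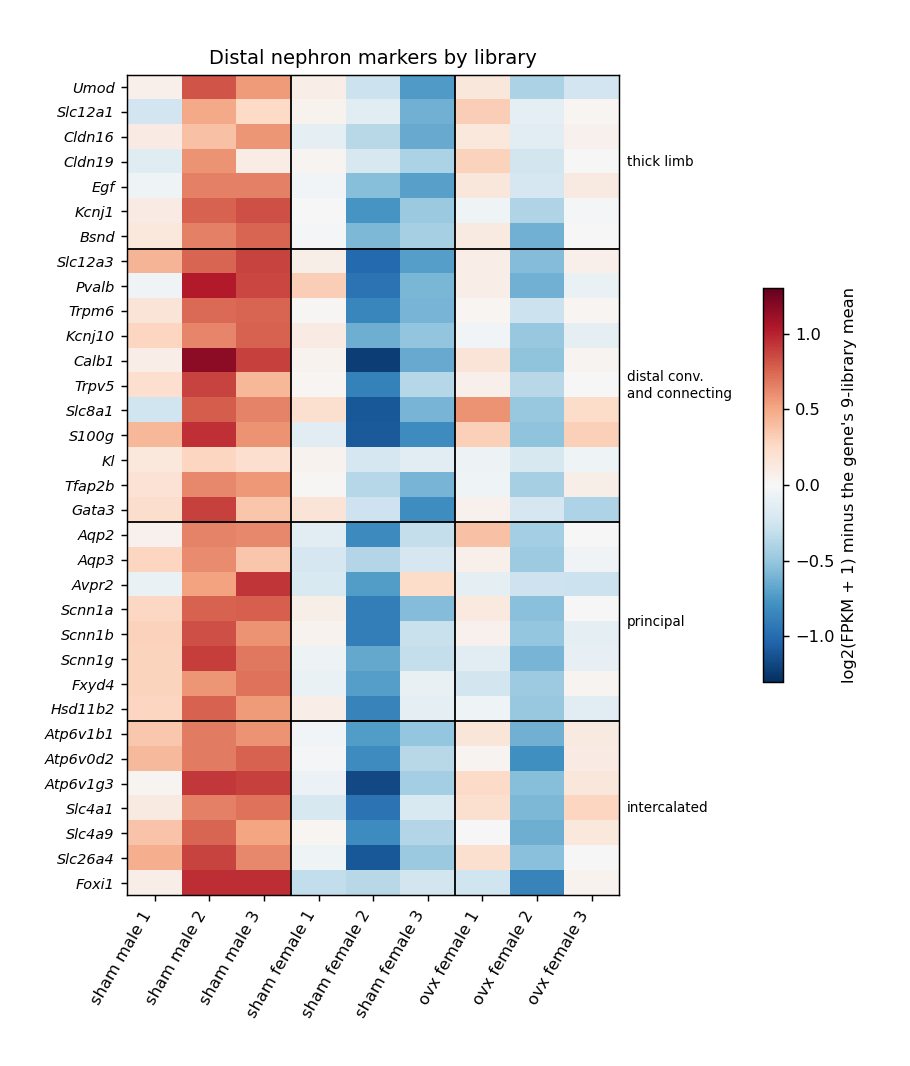
Heat map of the 33 tested genes by library, ordered by segment, with each cell giving log2(FPKM + 1) minus the gene's mean over the 9 libraries. The highest library is the second male for 20 genes and the third male for 13, and the second sham female library is the lowest for 23.

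The libraries of a group differed from each other in the same direction across most of the 33 tested genes. Within the males, the first library was the lowest for 33 of 33 genes, and the highest of all 9 libraries was the second male for 20 genes and the third male for 13. Within the sham females, the first library was the highest for 29 genes and the second was the lowest for 26. Within the ovariectomized females, the second library was the lowest for 31 genes. The ratio of the highest to the lowest library had a median over the genes of 1.55 in males, 1.87 in sham females and 1.52 in ovariectomized females. Klotho (Kl) varied least in the males, at 1.10, and Avpr2 varied most, at 2.27.

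In the thick ascending limb, Cldn16, Egf and Kcnj1 fell in sham females, while the other 4 genes were lower without passing the test. Uromodulin (Umod, ENSMUSG00000030963, GRCm38 chr7:119462711-119479282, minus strand) is the main protein of normal urine and is made in this segment. The males had 876, 1481 and 1228 FPKM of Umod, the sham females 893, 692 and 503 FPKM, and the ovariectomized females 926, 632 and 707 FPKM. The first sham female library overlapped the male range, and so did the first ovariectomized one. For Umod the log2 fold change of -0.79 ± 0.24 (SE) in sham females did not pass the test (adjusted p = 0.0804). Slc12a1 stood at 89.1, 149.6 and 128 FPKM in the males, 110.1, 95.8 and 68.4 FPKM in females with the sham operation and 133, 97.9 and 108 FPKM after ovariectomy. This gene encodes the sodium-potassium-chloride cotransporter that loop diuretics block, and its groups overlapped. In sham females Slc12a1 differed by -0.41 ± 0.22 (SE) on the log2 scale and was not called (adjusted p = 0.264).

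Epidermal growth factor (Egf) is a growth factor of the distal tubule that also promotes magnesium uptake. Egf was at 412, 673 and 674 FPKM in the males, 415, 290.3 and 262 FPKM in females with the sham operation and 472, 366 and 462 FPKM after ovariectomy. The first sham female library lay just above the lowest male, and the other 2 lay below all males. Egf had a log2 fold change of -0.85 ± 0.22 (SE) in sham females (adjusted p = 0.0464). The males had 74.6, 119 and 124 FPKM of Kcnj1, the sham females 69.3, 40.2 and 49.3 FPKM, and the ovariectomized females 66.7, 52.7 and 67.8 FPKM. Kcnj1 encodes ROMK, the channel that returns potassium to the tubule fluid, and all 3 sham female libraries were below all males. Kcnj1 fell in sham females by 0.98 ± 0.23 (SE) on the log2 scale, with adjusted p = 0.0308. Bsnd stood at 17.0, 24.7 and 26.4 FPKM in the males, 15.0, 9.87 and 11.0 FPKM in females with the sham operation and 16.6, 9.53 and 15.2 FPKM after ovariectomy. Bsnd encodes barttin, a membrane protein needed for salt reabsorption in this segment, and no female library reached the males. For Bsnd the log2 fold change of -0.86 ± 0.23 (SE) in sham females did not pass the test (adjusted p = 0.0519).

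Cldn16 and Cldn19 encode the tight-junction claudins that form the path for calcium and magnesium between the cells. Cldn16 was at 6.14, 7.65 and 8.83 FPKM in the males, 5.11, 4.17 and 3.21 FPKM in females with the sham operation and 6.30, 5.02 and 5.90 FPKM after ovariectomy. Every sham female library was below every male, while the first ovariectomized library passed the lowest male. Cldn16 fell in sham females by 0.73 ± 0.16 (SE) on the log2 scale, with adjusted p = 0.0261. Cldn19 averaged 5.28 ± 1.69 FPKM in males, 3.79 ± 0.734 in sham females and 4.58 ± 1.04 in ovariectomized females, with overlapping groups. For Cldn19 the log2 fold change of -0.37 ± 0.21 (SE) in sham females did not pass the test (adjusted p = 0.293).

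**Figure D2:**
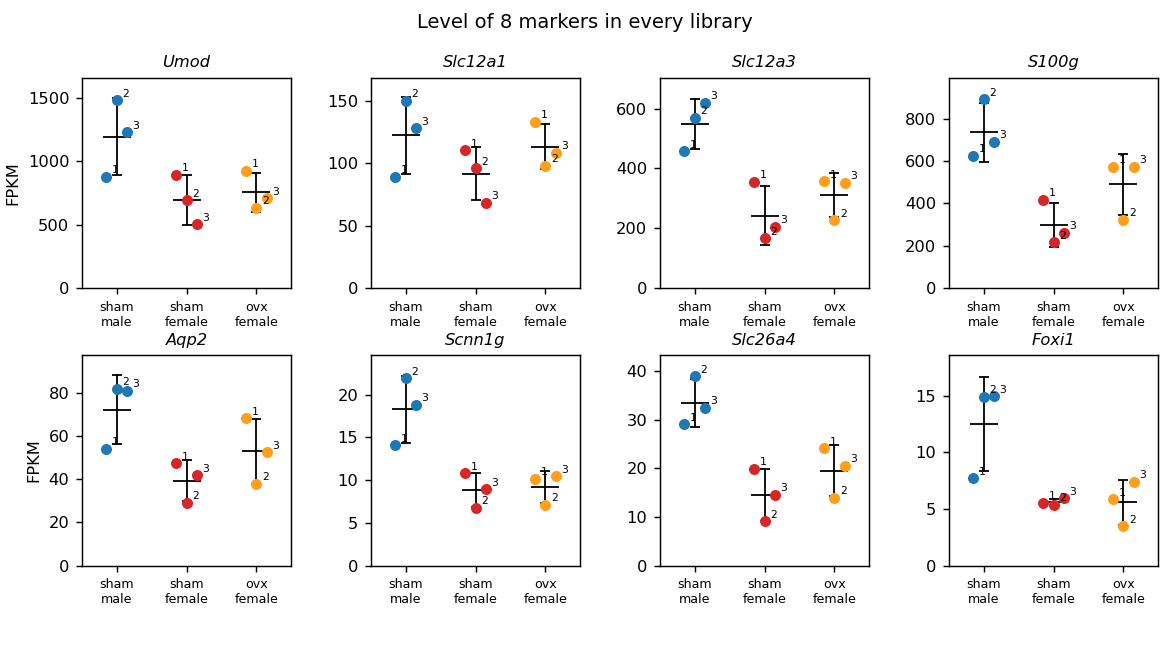
FPKM in every library for 8 genes of the 4 segments, with numbered points for libraries and lines for each group mean and SD. Slc12a3 lies between 457 and 619 FPKM in the males and between 167 and 357 FPKM in the females, while Umod and Slc12a1 overlap.

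Among the genes of the distal convoluted and connecting tubule, 7 of 11 fell in sham females. They were Slc12a3, Trpm6, Kcnj10, Trpv5, S100g, Kl and Tfap2b. S100g had the largest change in sham females of the 33 tested genes. Slc12a3 (ENSMUSG00000031766, chr8:94329201-94366214, plus strand) encodes the thiazide-sensitive sodium chloride cotransporter that defines the segment. The males had 457, 569.8 and 619 FPKM of Slc12a3, the sham females 355, 167 and 204 FPKM, and the ovariectomized females 357, 227 and 353 FPKM. No female library reached the lowest male. Slc12a3 fell in sham females by 1.24 ± 0.28 (SE) on the log2 scale, with adjusted p = 0.0246. Kcnj10 stood at 18.2, 23.5 and 25.8 FPKM in the males, 15.9, 9.12 and 10.1 FPKM in females with the sham operation and 14.4, 10.2 and 13.6 FPKM after ovariectomy. Kcnj10 encodes the basolateral potassium channel that sets the membrane voltage of these cells, and all 6 female libraries were below the males. Kcnj10 had a log2 fold change of -0.91 ± 0.21 (SE) in sham females (adjusted p = 0.0295). Trpm6 was at 4.57, 7.28 and 7.41 FPKM in the males, 4.03, 1.76 and 2.27 FPKM in females with the sham operation and 4.06, 3.10 and 4.04 FPKM after ovariectomy. Trpm6 encodes the apical magnesium channel, and its female libraries were also all below the males. Trpm6 fell in sham females by 1.03 ± 0.24 (SE) on the log2 scale, with adjusted p = 0.0289. Pvalb, a calcium-binding protein of the early part of the segment, averaged 40.0 ± 14.5 FPKM in males, 19.5 ± 9.87 in sham females and 21.4 ± 5.41 in ovariectomized females, with overlap. For Pvalb the log2 fold change of -1.03 ± 0.37 (SE) in sham females did not pass the test (adjusted p = 0.114).

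Promoter sequence for these genes was read from RefSeq (GRCm38.p6), which held an entry for 26 of the 34. For each gene the 250 bases upstream of 1 start, the first listed, were searched on both strands for GCCNNNGGC, the sequence bound by AP-2 proteins such as the product of Tfap2b. It was present in 5 of 10 genes of the distal convoluted and connecting tubule with an entry, namely Slc12a3, Pvalb, Trpm6, Kcnj10 and Gata3. It was present in 0 of 6 genes of the thick ascending limb, 1 of 6 of principal cells (Fxyd4) and 1 of 4 of intercalated cells (Foxi1), and in 13.6% of 27025 mouse promoters. The forkhead sequence GTAAACA was in Slc12a1, S100g, Avpr2 and Atp6v1b1, 4 of 26, against 3.09% of all promoters. Egf held it too, 175 bases upstream of another of its starts, which is not in these counts. AGATAA, the GATA sequence, was in Slc12a3, Trpv5, Slc8a1 and Aqp2, against 10.3%. The palindromic elements of the estrogen receptor, of the androgen and mineralocorticoid receptors and of HNF1 were in 0 of 26, against 0.0629%, 0.0037% and 0.0074% of all promoters. The estrogen-related receptor sequence TCAAGGTCA and the grainyhead sequence AACCGGTT were also in 0 of 26, against 0.366% and 0.122%. These are matches of letters only, and no protein binding was measured. The 100 bases before the start are shown for the 4 genes with the AP-2 sequence that fell in sham females, and for 2 with the forkhead sequence. Pvalb, Gata3 and Foxi1 also held the AP-2 sequence and were not called in sham females. Capitals mark the AP-2 or forkhead letters. The spans in GRCm38.p6 are chr8:94329108-94329207 (plus strand) for Slc12a3, chr1:172341110-172341209 (plus) for Kcnj10 and chr19:18749630-18749729 (plus) for Trpm6. For Fxyd4 the span is chr6:117937336-117937435 (minus). For Atp6v1b1 and S100g they are chr6:83742917-83743016 (plus) and chrX:162964600-162964699 (minus).
Slc12a3: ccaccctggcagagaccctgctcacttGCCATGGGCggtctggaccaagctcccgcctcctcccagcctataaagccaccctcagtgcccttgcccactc
Kcnj10: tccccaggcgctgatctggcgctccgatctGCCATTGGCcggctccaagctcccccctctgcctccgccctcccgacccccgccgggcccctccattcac
Trpm6: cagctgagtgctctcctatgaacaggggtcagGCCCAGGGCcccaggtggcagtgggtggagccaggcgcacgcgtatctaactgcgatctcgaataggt
Fxyd4: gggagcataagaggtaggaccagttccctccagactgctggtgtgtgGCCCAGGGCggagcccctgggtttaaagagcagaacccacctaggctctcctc
Atp6v1b1: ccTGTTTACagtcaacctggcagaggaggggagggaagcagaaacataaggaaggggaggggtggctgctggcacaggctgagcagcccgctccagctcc
S100g: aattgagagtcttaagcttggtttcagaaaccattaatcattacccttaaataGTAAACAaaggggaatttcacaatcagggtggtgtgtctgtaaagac
The AP-2 letters began 73, 70, 68 and 53 bases upstream of the starts of Slc12a3, Kcnj10, Trpm6 and Fxyd4. In Atp6v1b1, whose forkhead letters read on the other strand, the match began 98 bases upstream, and in S100g it began 47 bases upstream.

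Calcium entry in the connecting tubule runs from the apical channel Trpv5 through the buffers Calb1 (calbindin-D28k) and S100g (calbindin-D9k) to the exchanger Slc8a1. The males had 623, 892 and 691 FPKM of S100g, the sham females 417, 216 and 262 FPKM, and the ovariectomized females 572, 322 and 574 FPKM. S100g (ENSMUSG00000040808, chrX:162961992-162964599, minus strand) had no female library above the lowest male, and the sham females lay far below. S100g fell in sham females by 1.34 ± 0.28 (SE) on the log2 scale, with adjusted p = 0.0206. Trpv5 stood at 6.88, 11.5 and 8.13 FPKM in the males, 5.90, 2.69 and 4.23 FPKM in females with the sham operation and 6.07, 4.29 and 5.74 FPKM after ovariectomy. All female libraries of Trpv5 were below all males. Trpv5 had a log2 fold change of -0.92 ± 0.24 (SE) in sham females (adjusted p = 0.0484). Calb1 was at 79.4, 168 and 139 FPKM in the males, 77.1, 31.4 and 47.0 FPKM in females with the sham operation and 83.8, 51.6 and 76.5 FPKM after ovariectomy. The sham female libraries of Calb1 did not reach the males, while the first ovariectomized library did. In sham females Calb1 differed by -1.32 ± 0.35 (SE) on the log2 scale and was not called (adjusted p = 0.0501). Slc8a1 averaged 26.9 ± 9.68 FPKM in males, 14.4 ± 7.21 in sham females and 22.0 ± 8.01 in ovariectomized females, with wide overlap. For Slc8a1 the log2 fold change of -0.89 ± 0.40 (SE) in sham females did not pass the test (adjusted p = 0.191).

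Kl encodes klotho, the co-receptor through which FGF23 acts on phosphate and vitamin D handling, and is also expressed in the proximal tubule. The males had 199.8, 219 and 211 FPKM of Kl, the sham females 187, 156 and 165 FPKM, and the ovariectomized females 173, 157 and 175 FPKM. No female library reached the males, and the difference in sham females was the smallest of the 33 genes. Kl fell in sham females by 0.31 ± 0.08 (SE) on the log2 scale, with adjusted p = 0.0408. Tfap2b stood at 7.97, 11.2 and 10.7 FPKM in the males, 6.99, 5.10 and 4.21 FPKM in females with the sham operation and 6.58, 4.84 and 7.31 FPKM after ovariectomy. Tfap2b encodes an AP-2 transcription factor needed for the distal convoluted tubule in mice, and its female libraries were all below the males. Tfap2b had a log2 fold change of -0.78 ± 0.19 (SE) in sham females (adjusted p = 0.0386). Gata3, a transcription factor of the nephric duct lineage, averaged 12.6 ± 3.44 FPKM in males, 6.94 ± 2.597 in sham females and 7.37 ± 1.36 in ovariectomized females. Its female libraries did not reach the males. In sham females Gata3 differed by -0.80 ± 0.25 (SE) on the log2 scale and was not called (adjusted p = 0.0857). Another annotated gene on the same strand overlaps exons of Gata3, so its reads may be shared.

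**Figure D3:**
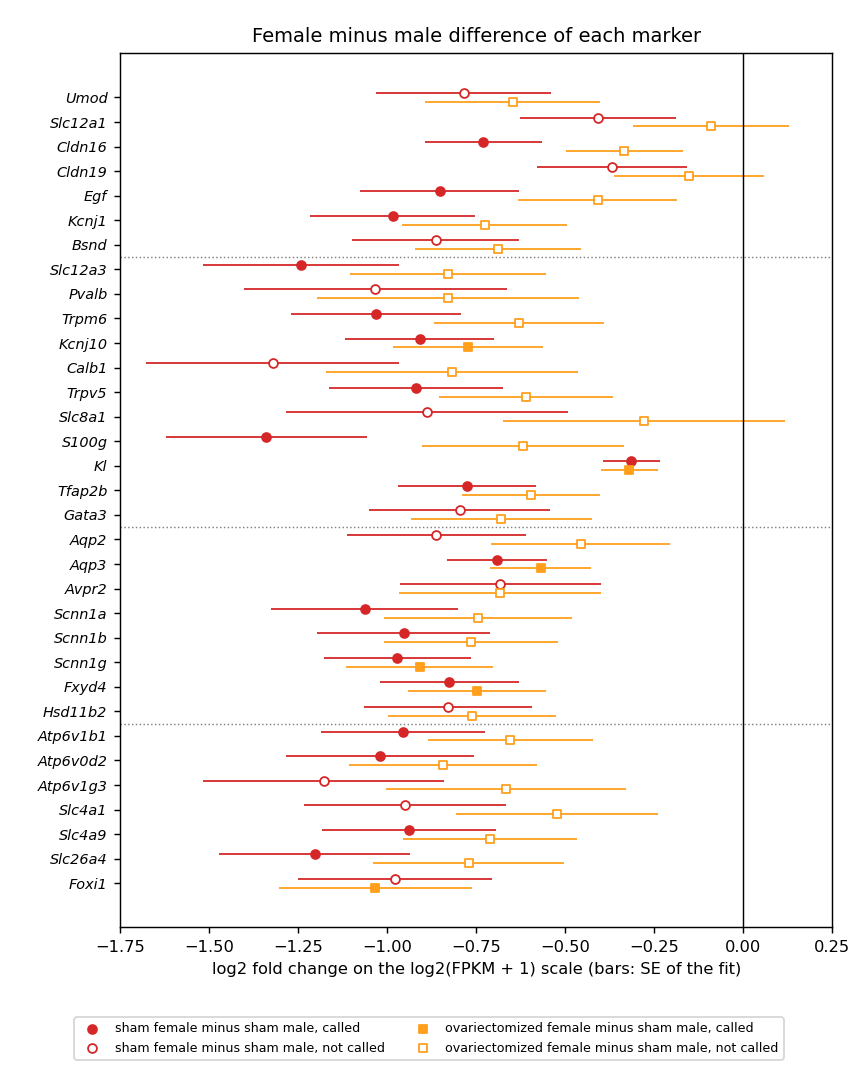
Log2 fold change on the log2(FPKM + 1) scale with its standard error for each of the 33 tested genes, for sham females (circles) and ovariectomized females (squares) against males, filled where called. All 33 values of both female groups are below 0, with 19 circles and 6 squares filled.

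Among principal cell genes, the 3 subunits of the epithelial sodium channel fell together with Aqp3 and Fxyd4, 5 of 8 tested. The channel is the aldosterone-regulated entry step for sodium. Scnn1a was at 43.4, 61.5 and 61.9 FPKM in the males, 37.8, 18.8 and 23.9 FPKM in females with the sham operation and 39.2, 24.2 and 35.7 FPKM after ovariectomy. No female library of this alpha subunit reached the males. Scnn1a had a log2 fold change of -1.06 ± 0.26 (SE) in sham females (adjusted p = 0.0369). The males had 17.1, 25.2 and 21.1 FPKM of Scnn1b, the sham females 14.2, 6.87 and 11.1 FPKM, and the ovariectomized females 14.3, 9.40 and 12.4 FPKM. The beta subunit was also below the males in all 6 female libraries. Scnn1b fell in sham females by 0.95 ± 0.24 (SE) on the log2 scale, with adjusted p = 0.0425. Scnn1g stood at 14.1, 21.9 and 18.8 FPKM in the males, 10.8, 6.76 and 8.94 FPKM in females with the sham operation and 10.2, 7.07 and 10.4 FPKM after ovariectomy. Scnn1g (ENSMUSG00000000216, chr7:121734479-121768475, plus strand), the gamma subunit, had no female library above the lowest male. Scnn1g had a log2 fold change of -0.97 ± 0.21 (SE) in sham females (adjusted p = 0.0213). Scnn1b over Scnn1a was 0.381 ± 0.036 in males and 0.401 ± 0.053 in sham females, so that the ratios overlapped.

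Among the water channels and hormone-related genes of principal cells, Aqp3 fell in sham females and the 3 others did not pass the test. Aqp2 was at 53.9, 81.7 and 80.8 FPKM in the males, 47.3, 28.9 and 41.7 FPKM in females with the sham operation and 68.2, 37.9 and 52.3 FPKM after ovariectomy. Aqp2 (ENSMUSG00000023013, chr15:99579055-99584547, plus strand) is the vasopressin-regulated water channel. Its sham female libraries were below the males and its ovariectomized libraries overlapped them. In sham females Aqp2 differed by -0.86 ± 0.25 (SE) on the log2 scale and was not called (adjusted p = 0.0648). The males had 74.7, 94.2 and 79.1 FPKM of Aqp3, the sham females 52.5, 46.9 and 52.5 FPKM, and the ovariectomized females 64.3, 43.8 and 59.4 FPKM. Aqp3, the basolateral water channel, was below the males in all 6 female libraries. Aqp3 had a log2 fold change of -0.69 ± 0.14 (SE) in sham females (adjusted p = 0.0173). Fxyd4 stood at 25.0, 30.6 and 33.6 FPKM in the males, 18.9, 11.9 and 18.8 FPKM in females with the sham operation and 17.0, 14.3 and 20.8 FPKM after ovariectomy. Fxyd4 encodes a regulator of the sodium pump and was likewise below the males in all female libraries. Fxyd4 fell in sham females by 0.82 ± 0.19 (SE) on the log2 scale, with adjusted p = 0.0307. Hsd11b2 was at 80.6, 113 and 97.8 FPKM in the males, 70.7, 35.9 and 61.0 FPKM in females with the sham operation and 63.7, 46.8 and 59.9 FPKM after ovariectomy. Hsd11b2 encodes the enzyme that keeps glucocorticoids off the aldosterone receptor, and no female library reached the males. For Hsd11b2 the log2 fold change of -0.83 ± 0.24 (SE) in sham females did not pass the test (adjusted p = 0.0608). Avpr2, the vasopressin receptor, averaged 6.64 ± 2.57 FPKM in males, 3.75 ± 1.56 in sham females and 3.58 ± 0.272 in ovariectomized females, and sham females and males overlapped. In sham females Avpr2 differed by -0.68 ± 0.28 (SE) on the log2 scale and was not called (adjusted p = 0.163). Exons of Avpr2 and Arhgap4 overlap on opposite strands.

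In intercalated cells the base exchangers and proton pump subunits were lower in sham females, with 4 of 7 genes called. Slc26a4 (ENSMUSG00000020651, chr12:31519827-31559969, minus strand) encodes pendrin, which secretes bicarbonate in beta intercalated cells. The males had 29.1, 38.9 and 32.4 FPKM of Slc26a4, the sham females 19.9, 9.09 and 14.6 FPKM, and the ovariectomized females 24.1, 13.9 and 20.6 FPKM. Its male and female libraries did not overlap. Slc26a4 had a log2 fold change of -1.20 ± 0.27 (SE) in sham females (adjusted p = 0.0254). Slc4a9 stood at 27.0, 35.6 and 29.9 FPKM in the males, 21.1, 11.3 and 15.7 FPKM in females with the sham operation and 20.8, 13.0 and 22.8 FPKM after ovariectomy. Slc4a9 encodes the basolateral exchanger AE4 of the same cells, and its libraries separated in the same way. Slc4a9 fell in sham females by 0.94 ± 0.24 (SE) on the log2 scale, with adjusted p = 0.045. Atp6v1b1 was at 52.9, 66.6 and 62.5 FPKM in the males, 40.4, 24.6 and 28.9 FPKM in females with the sham operation and 46.2, 26.4 and 44.9 FPKM after ovariectomy. Atp6v1b1 encodes the B1 subunit of the proton pump, and every female library was below every male. Atp6v1b1 had a log2 fold change of -0.95 ± 0.23 (SE) in sham females (adjusted p = 0.034). The males had 12.7, 15.3 and 16.3 FPKM of Atp6v0d2, the sham females 9.08, 4.78 and 6.93 FPKM, and the ovariectomized females 9.43, 4.85 and 9.97 FPKM. This gene encodes a membrane-sector subunit of the pump, and its female libraries were all below the males. Atp6v0d2 fell in sham females by 1.02 ± 0.26 (SE) on the log2 scale, with adjusted p = 0.044. Foxi1 stood at 7.71, 14.9 and 14.9 FPKM in the males, 5.55, 5.37 and 5.95 FPKM in females with the sham operation and 5.85, 3.48 and 7.43 FPKM after ovariectomy. Foxi1 is the transcription factor that directs intercalated cell identity in mice. Its sham female libraries lay close together, below all males. For Foxi1 the log2 fold change of -0.98 ± 0.27 (SE) in sham females did not pass the test (adjusted p = 0.0568).

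Atp6v1g3, another pump subunit, averaged 26.2 ± 8.39 FPKM in males, 11.1 ± 4.33 in sham females and 15.98 ± 4.70 in ovariectomized females, and the males and sham females did not overlap. In sham females Atp6v1g3 differed by -1.18 ± 0.34 (SE) on the log2 scale and was not called (adjusted p = 0.0626). Slc4a1, the chloride bicarbonate exchanger of alpha intercalated cells and of red cells, averaged 13.0 ± 2.92 FPKM in males, 6.34 ± 2.01 in sham females and 8.91 ± 2.92 in ovariectomized females. For Slc4a1 the log2 fold change of -0.95 ± 0.28 (SE) in sham females did not pass the test (adjusted p = 0.0708). Red cell markers varied within every group, with sums of 83.1, 42.0 and 39.3 FPKM in males, 7.26, 85.5 and 1.87 FPKM in sham females, and 86.2, 17.2 and 7.88 FPKM in ovariectomized females. All 4 red cell markers tested were lower than in males in both female groups, as were 66.8% and 65.9% of all genes tested, and 0 were called. Their median log2 fold change was -1.58 in sham and -0.98 in ovariectomized females. The part of red cells in the Slc4a1 level was not tested.

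Further genes listed for the same segments, from lists that do not contain the 34, were lower in part. Bulk FPKM does not show which cells the change of a listed gene came from. Over all genes tested, 4.87% fell and 4.28% rose in sham females. Among 11 tested genes of the thick ascending limb list, 5 fell and 1 rose. Tmem52b fell by 1.25 on the log2 scale (adjusted p = 0.018), and the kinase Wnk1 fell by 1.18 (adjusted p = 0.00863), from 318 ± 45.1 to 144 ± 46.6 FPKM. The claudin gene Cldn10 rose by 0.38 (adjusted p = 0.00972), from 79.7 ± 6.71 to 104 ± 2.06 FPKM, and the cells of this rise are not known.

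Among 16 genes of the distal convoluted and connecting tubule, 8 fell and 0 rose. Pgam2, a glycolytic enzyme, fell by 1.24 (adjusted p = 0.0229). Tissue kallikrein (Klk1) fell by 1.22 (adjusted p = 0.0235), from 1756 ± 218 to 788 ± 304 FPKM. Stk39, the kinase that activates the sodium chloride cotransporter, fell from 15.2 ± 4.50 to 6.78 ± 2.20 FPKM (adjusted p = 0.0302). Among 14 tested genes of principal cells, 7 fell and 0 rose. Cldn7 fell by 1.18 (adjusted p = 0.0323), Cldn8 by 1.15 (adjusted p = 0.0226) and Krt18 by 1.05 (adjusted p = 0.0234). Among 16 tested genes of intercalated cells, 6 fell and 0 rose. Hmx2 fell by 0.995 (adjusted p = 0.0295), Oxgr1 by 0.96 (adjusted p = 0.0239) and the ammonia transporter Rhcg by 0.94 (adjusted p = 0.0273).

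In ovariectomized females against males, fewer genes of these lists were called, beside 6.19% that fell and 5.63% that rose over all genes tested. Wnk1 fell by 0.77 (adjusted p = 0.0445) and Cldn10 rose by 0.25 (adjusted p = 0.0457), the 2 calls from the thick ascending limb list. Whether these 2 changes arose in that segment is not shown by bulk FPKM. In the distal convoluted and connecting tubule list 2 fell, Pgam2 by 0.99 (adjusted p = 0.0452) and Wnk4, a kinase of salt transport control, by 0.47 (adjusted p = 0.0412). Of the principal cell list 4 fell and 1 rose. Wfdc2, a secreted protease inhibitor, rose by 0.85 (adjusted p = 0.0166) and averaged 81.2 ± 13.2 FPKM in males, 83.4 ± 19.5 in sham females and 146.5 ± 18.0 in ovariectomized females. Krt18 fell by 0.84 (adjusted p = 0.0467) and the transcription factor Ehf by 0.81 (adjusted p = 0.021). Of 16 tested genes of the intercalated cell list 1 fell, Rhcg, by 0.79 (adjusted p = 0.0437). This share and that of the thick ascending limb list, 1 fallen of 11, were near those over all genes. With both female groups together, 9.56% of all genes tested fell and 6.49% rose. Of the 4 lists, 5 of 11, 8 of 16, 8 of 14 and 8 of 16 tested genes fell and 1, Cldn10, rose. Among the largest of these changes were those of Tmem52b and Wnk1, of Pgam2, Klk1 and Stk39, of Cldn7, Cldn8 and Krt18, and of Atp6v1c2, Rhcg and Oxgr1. Between the female groups 0 genes of these lists were called.

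Between the female groups, ovariectomized against sham, 0 of the 33 genes passed limma's test, and adjusted p ranged from 0.742 to 0.9998. Only 1 of 13160 genes passed at all, 0.00760% of them, and it fell, while 0 rose (0.00%). At an unadjusted p under 0.05 there were 2 of the 33 genes, Cldn16 and S100g, which is 6.06% against 6.29% of all genes tested. S100g had the largest difference, higher by 0.72 ± 0.28 (SE) on the log2 scale after ovariectomy. The first and the third ovariectomized libraries, at 572 and 574 FPKM, lay above all sham females, and the second, at 322 FPKM, lay inside their range. Cldn16 was higher by 0.40 ± 0.16, with overlap. The estimate was above 0 for 30 of 33 genes, with a median of 0.23, against 52.2% of all genes and a median of 0.01. The exceptions were Kl, Avpr2 and Foxi1, which lay between -0.06 and 0.00. For 0 of 33 genes were all ovariectomized libraries above all sham females, against 6.76% of all genes tested.

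The titles give replicate numbers and state no pairing. Female libraries of the same number were treated as pairs after the check given with the processing, which does not settle the pairing. Set side by side by number, 17 of 33 genes were higher after ovariectomy in all 3 pairs, as were 18.2% of all genes tested. The genes were higher in 21 of 33 cases in the first pair, 26 in the second and 31 in the third, where 51.0%, 49.1% and 53.3% of all genes tested were higher. S100g was 1.37, 1.49 and 2.19 times the sham level in these pairs, and Aqp2 was 1.44, 1.31 and 1.25 times. In a limma fit of the 6 female libraries with the pair as a block, added after the data were seen, 0 of 33 genes passed and the lowest adjusted p was 0.126, for Aqp2. At an unadjusted p under 0.05 that fit had 15 of 33 genes, against 12.2% of all genes tested. A block in the fit of 9 libraries had 1 of 33, S100g, against 7.09% of all genes tested.

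Against males, ovariectomized females had all 33 genes lower, as were 65.9% of all genes tested, and 6 of the 33 fell while 0 rose. These were Kcnj10, Kl, Aqp3, Scnn1g, Fxyd4 and Foxi1, against 6.19% of all genes tested that fell and 5.63% that rose. The median log2 fold change was -0.68, against -0.09 over all genes. For 22 genes the libraries did not overlap, against 23.2% of all genes tested. Scnn1g differed by -0.91 ± 0.21 (adjusted p = 0.0229) and Foxi1 by -1.03 ± 0.27 (adjusted p = 0.0403). Aqp3 differed by -0.57 ± 0.14 (adjusted p = 0.032) and Kl by -0.32 ± 0.08 (adjusted p = 0.0323). Kcnj10 and Fxyd4 differed by -0.77 ± 0.21 (adjusted p = 0.0451) and -0.75 ± 0.19 (adjusted p = 0.0379). In the thick ascending limb 0 of 7 genes were called, and Slc12a1 differed by only -0.09 ± 0.22. Its direction, and those of Cldn19 and Slc8a1, turned in at least 1 alternative setting. The 6 called genes kept their call in 9 to 16 of 20 settings. The count of 6 was 0 without the second male, the third male or the second ovariectomized library, 2 without the first and 3 without the third ovariectomized library, and 0 when genes above 0 FPKM in any library were tested. This comparison shares its males with the one above, and whether the female groups differ is the test between them.

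Taking both female groups together against males, 23 of 33 genes fell and 0 rose, against 9.56% and 6.49% of all genes tested. All 33 were lower, as were 66.8% of all genes tested. The contrast uses 6 female libraries that also enter the comparisons above. Umod, Bsnd, Calb1, Hsd11b2 and Foxi1 were called here and not in sham females, and Egf was called there and not here. Umod differed by -0.72 ± 0.21 (adjusted p = 0.04996), a value at the threshold, and Calb1 by -1.07 ± 0.31 (adjusted p = 0.0446). Scnn1g (-0.94 ± 0.18, adjusted p = 0.00882) and Aqp3 (-0.63 ± 0.12, adjusted p = 0.00953) were called in all 20 alternative settings. The other called genes kept their call in 8 to 18 of these. The 10 genes that were not called were Slc12a1, Cldn19, Egf, Pvalb, Slc8a1, Gata3, Aqp2, Avpr2, Atp6v1g3 and Slc4a1. For 21 genes all 6 female libraries were below all 3 males, against 14.2% of all genes tested. The count of 23 was 2 without the second or the third male, and 15 without the second sham female, the third sham female or the second ovariectomized library. It was 5 when genes above 0 FPKM in any library were tested.

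Slc12a1, the marker cotransporter of the thick ascending limb, had the smallest difference between both female groups and the males, -0.25 ± 0.19 (SE). Ratios between genes of the list were computed for 14 pairs chosen after their values were seen, and are given without a test. Slc12a1 over Umod was 0.102, 0.101 and 0.104 in the males, 0.123, 0.138 and 0.136 in females with the sham operation and 0.144, 0.155 and 0.153 after ovariectomy. The 3 groups did not overlap. Slc12a1 over Slc12a3 was 0.195, 0.263 and 0.206 in the males, 0.310, 0.574 and 0.335 in females with the sham operation and 0.373, 0.431 and 0.307 after ovariectomy. The ratio was higher in every female library than in every male. The same held for Slc12a1 over Slc26a4, and for 3 of the 14 ratios in all. Set against each of the other 32 genes, Slc12a1 was relatively higher in every female library for 19 of them, Cldn19 for 12 and Kl for 10. Of the 9 ratios within another segment, 0 separated all 6 female libraries from the males. Slc4a9 over Slc26a4 separated sham females (1.06, 1.24 and 1.08) from males (0.929, 0.915 and 0.921), and Scnn1a over Aqp2 separated ovariectomized females (0.575, 0.637 and 0.682) from males (0.805, 0.753 and 0.767). Scnn1g over Scnn1a also separated ovariectomized females (0.260, 0.293 and 0.293) from males (0.324, 0.356 and 0.304). S100g over Calb1 was 6.05 ± 1.57 in males, 5.95 ± 0.80 in sham females and 6.86 ± 0.63 in ovariectomized females.

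**Figure D4:**
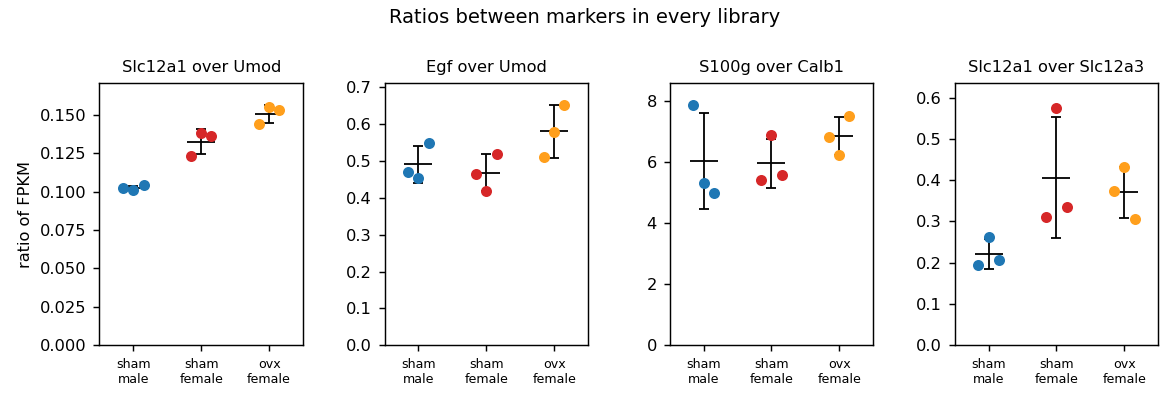
Ratios of FPKM between genes of the list, with 1 point per library and lines for each group mean and SD. Slc12a1 over Umod lies between 0.101 and 0.104 in the males and between 0.123 and 0.155 in the females.

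Markers of other cells also differed between the groups. Prom1, whose protein was used for the sort, was at 42.1, 39.4 and 54.6 FPKM in the males, 90.4, 76.8 and 129 FPKM in females with the sham operation and 68.5, 76.1 and 78.5 FPKM after ovariectomy. All female libraries were above all males. In limma's test it rose by 1.09 ± 0.18 in sham females (adjusted p = 0.00671) and by 0.71 ± 0.18 in ovariectomized females (adjusted p = 0.0357). Of 12 proximal tubule markers, 8 rose in sham females and 0 fell, led by Aqp1, Slc13a3 and Cubn, beside 4.28% of all genes tested that rose. The sodium-coupled transporters Slc5a2 and Slc5a12 were below the male mean and not called. Slc5a2 averaged 738 ± 167 FPKM in males, 554 ± 89.0 in sham females and 511 ± 60.6 in ovariectomized females. The 12 proximal tubule markers summed to 8104 to 9173 FPKM in males, 10320.4 to 11403 in sham females and 11272 to 12348 in ovariectomized females. All 5 podocyte and all 6 endothelial markers were below the male mean in both female groups, and 0 were called. Median log2 fold changes in sham and ovariectomized females were -0.96 and -1.13 for podocyte and -0.83 and -0.72 for endothelial markers. These were of the size of the medians over the 33 distal genes, -0.92 and -0.68, against -0.09 over all genes tested. Podocyte sums were 200.1 to 287 FPKM in males, 40.6 to 258 in sham females and 75.6 to 221 in ovariectomized females. Endothelial sums were 132 to 240.2, 37.1 to 129.6 and 73.6 to 126 FPKM in the same order. The 6 stromal markers summed to 25.0 to 47.0 FPKM and the 6 immune markers to 16.3 to 34.3 FPKM over the 9 libraries, and 0 of the 3 stromal and 4 immune markers tested were called. All 4 urothelial markers were under 1 FPKM in every library, and Upk3a was at 0. The part of the proximal, podocyte, endothelial and Prom1 levels in the lower distal genes was not tested.

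**Figure D5:**
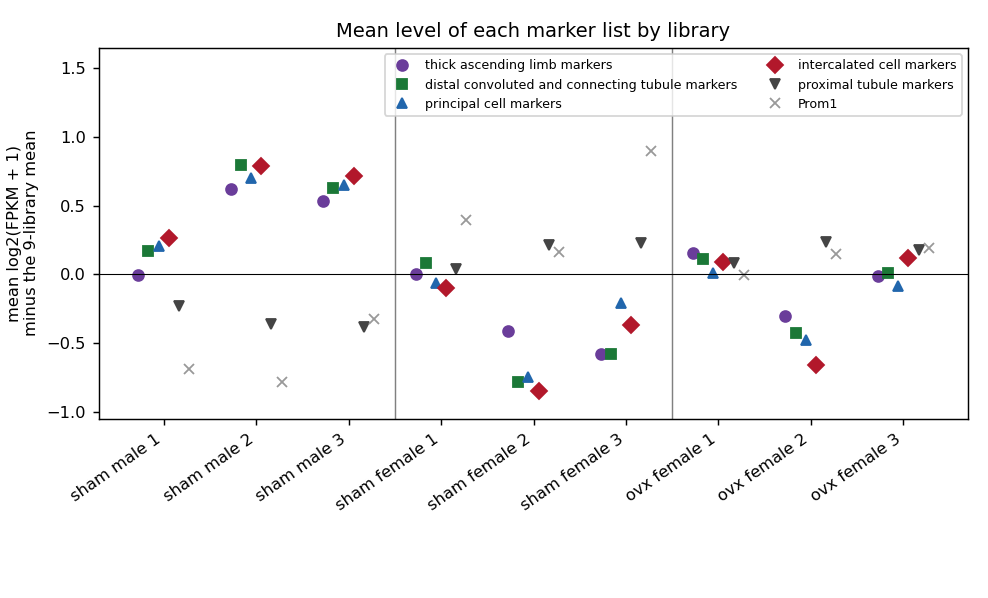
For each library, the mean over the genes of a list of the log2(FPKM + 1) value minus the gene's mean over the 9 libraries, for the 4 distal segments, the proximal tubule markers and Prom1. The second and the third males stand at 0.53 or higher in all 4 distal segments, and all males stand at -0.23 or lower for the proximal markers and Prom1.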

How the data were processed

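RNA of prominin-1-positive cortex cells was extracted with an RNeasy kit and made into strand-specific libraries, per the labels' protocols. The authors deposited FPKM per gene and library with 2 decimals, and the submitters' processing notes name STAR 2.6.0c and RSEM. For the RSEM version, genome build, annotation and strand setting, the sources used here give nothing. Of 4 unnamed side columns, 3 held 24 numbers, and none was used. Positions come from GENCODE M21 (GRCm38), in which 52093 of 52405 IDs and all 34 members were found. Opposite-strand genes overlap exons of Umod, Cldn19, Egf, Slc8a1, Gata3 and Avpr2.

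Genes at 1 FPKM or more in at least 3 of 9 libraries (13160) were transformed to log2(FPKM + 1), which understates changes of low genes, then modelled by limma (3.58.1, R 4.3.3) with a trended variance and a mean per group. Tests were two-sided, adjusted by Benjamini-Hochberg over all genes tested and called at an adjusted p under 0.05. The same limma steps were run on simulated log values with independent noise in each gene. That run does not cover shifts shared by many genes of a library. Figures used Python 3.11.15, pandas 2.3.3, numpy 2.4.6 and matplotlib 3.10.9.

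The table holds no counts. Steps between low values gave an estimate of depth, from genes with 1 transcript of 300 to 800 bp, where 64.8% to 71.6% of values lay within 0.0055 FPKM of 1 to 3 reads, against 10.8% to 14.5% by chance. No counting intervals were computed.

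Deviations from the group means were correlated between libraries over all genes tested. Sham and ovariectomized female libraries of the same number gave r = 0.347, 0.174 and 0.291, so these numbers, taken from the titles, were treated as pairs. Male and female libraries of the same number gave -0.125 to 0.28 and were not treated as pairs. Sham and ovariectomized female libraries of different numbers gave -0.325 to 0.054, all below the same-number female values. Male and female libraries of different numbers gave -0.356 to 0.282, which reaches above the 0.174 of the second female pair. With 3 libraries per group and no pairing stated in the titles, the check cannot establish the pairing.

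Values in every library are given for members called in any comparison, for the 2 of highest mean per segment and for S100g, Slc12a3, Aqp2 and Slc26a4, and of the further segment lists up to 3 called genes of largest change per list and comparison are named, except 1 gene that is not reported here. The members and lists were chosen with earlier results of these data known. Alternatives were the pseudocount, the filter on low values, scaling, the variance model, the libraries fitted, a replicate block and each library left out.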

Additional observations from a re-analysis of the deposited data

How the results depend on the processing

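The median over the 33 genes kept its sign in every setting: it ranged over the libraries left out from -1.11 to -0.76 for sham females against males, from 0.13 to 0.47 for ovariectomized against sham females, from -0.86 to -0.53 for ovariectomized females against males and from -0.92 to -0.72 for both female groups. The calls depended on the setting. Of the repeated tests of called members, 234 of 380 kept the call for sham females, 76 of 120 for ovariectomized females and 357 of 460 for both groups, and 0 reversed.

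Sham females against males gave 1204 called genes, 19 of them members. The total was 739 with genes above 0 FPKM in any library, 722 with only the groups compared and 561 to 1579 with 1 library left out. The members called were 0, 7 and 0 to 26 in these settings, and 10 with the replicate block, whose numbers were not treated as pairing males with females. With ovariectomized females against males, 1555 genes and 6 members were called. Leaving out 1 library gave 877 to 1631 genes and 0 to 9 members, genes above 0 FPKM gave 0 members, and a variance without a trend gave 3. Both female groups gave 2112 genes and 23 members, with 1007 to 2216 genes and 2 to 28 members over the libraries left out and 5 members with genes above 0 FPKM.

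Ovariectomized against sham females gave 1 called gene and 0 members. The total was 2 with genes above 0 FPKM, 0 with median-ratio scaling, 0 with quantile normalization, 2 without mitochondrial genes, 3 without a trend, 13 with array weights, 9 with only the groups compared, 0 with the replicate block, 6 with the block over the female libraries alone and 0 to 9 with 1 library left out. Members called stayed at 0 in these settings.

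Median-ratio scaling and quantile normalization moved the balance of all called genes but not that of the members. Rescaling to 1e6 without mitochondrial genes changed the balance of all called genes little, with 573 risen and 642 fallen in sham females. The same rescaling gave 738 and 914 for ovariectomized females against males, and 864 and 1354 for both female groups. For sham females, 563 genes rose and 641 fell as deposited, 796 and 488 after median-ratio scaling, and 695 and 471 after quantile normalization. For ovariectomized females against males the splits were 741 and 814, 975 and 528, and 767 and 536, and for both female groups 854 and 1258, 1160 and 822, and 971 and 784. Without counts, the precision of genes at a few FPKM, such as Trpm6 and Avpr2, is known only from the spread between libraries.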
